A study of Mus musculus with 4 samples.

Results

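Genes of the mouse whose symbol starts with Spata, short for spermatogenesis associated, were followed in testis RNA with and without PIWIL1. Members were all identifiers of the expression table whose mouse symbol has that prefix, with 1 further symbol of the prefix not used here. This gave 27 genes of 22808, of which 5 form the Spata31 subfamily. Spata22 and Spata5l1 matched no identifier of the table and were not analysed here. The members share a naming habit and mostly not an ancestor, so they were grouped by what each is known to do.

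Testis RNA was sequenced in 2 libraries at postnatal day 23, 1 from Piwil1+/- and 1 from Piwil1-/- mice. PIWIL1, also called MIWI, binds piRNAs in pachytene spermatocytes and round spermatids and belongs to the PIWI proteins. Both genotypes carry the mutant allele, so the control is a heterozygote and not a wild type. The labels give neither the nature of the allele, nor the strain of these mice, nor how many animals went into a library. Levels are RPKM, read numbers divided by gene length and by library total, and can be compared between genes. Piwil1 itself was at 26.2 RPKM in Piwil1+/- and was listed at 0 in Piwil1-/-, which matches the labels. Library totals behind the RPKM values came to 104014686 reads for Piwil1+/- and, for Piwil1-/-, to 100254357 reads. Intervals are 95% intervals for counting error only. Each genotype has 1 library, so the spread between animals is unknown, differences have no replicate check and p-values are left out.

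Spermatogenesis runs from spermatogonia through meiosis to round spermatids, which then elongate, condense the nucleus, form the acrosome over it and build the tail. After birth the first germ cells move through these steps as a wave, and at this age of the mouse the most advanced cells are spermatids. Many Spata genes were named because their RNA appears in that late phase. Some encode parts of the sperm head, the neck or the tail, while others are used in most tissues.

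Levels of Spata RNAs spanned more than 3 orders of magnitude between members, and a few genes carried most of the RNA. Spata4, a testis gene of little-known function, was the highest, at 352 RPKM in Piwil1+/- and 374 RPKM in Piwil1-/-, and ranked 21 among all 22808 identifiers in Piwil1+/-. Spata1 was at 148 and 136 RPKM in Piwil1+/- and Piwil1-/-. Spata6, needed for the connecting piece that joins the sperm head to the tail, was at 143 and 116 RPKM. Together these 3 genes held 62.8% of the summed RPKM of the 27 members in Piwil1+/- and 70.6% in Piwil1-/-. At the other end, Spata13, Spata2 and Spata2l stayed under 1 RPKM in both libraries. All 3 belong to the members with broad use outside the testis. In the order of levels in Piwil1+/-, the counting intervals met for 8 of 26 neighbouring pairs, among them Spata20 with Spata17 and Spata21 with Spata46. In Piwil1-/- they met for 12 of 26 pairs.

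**Figure D1:**
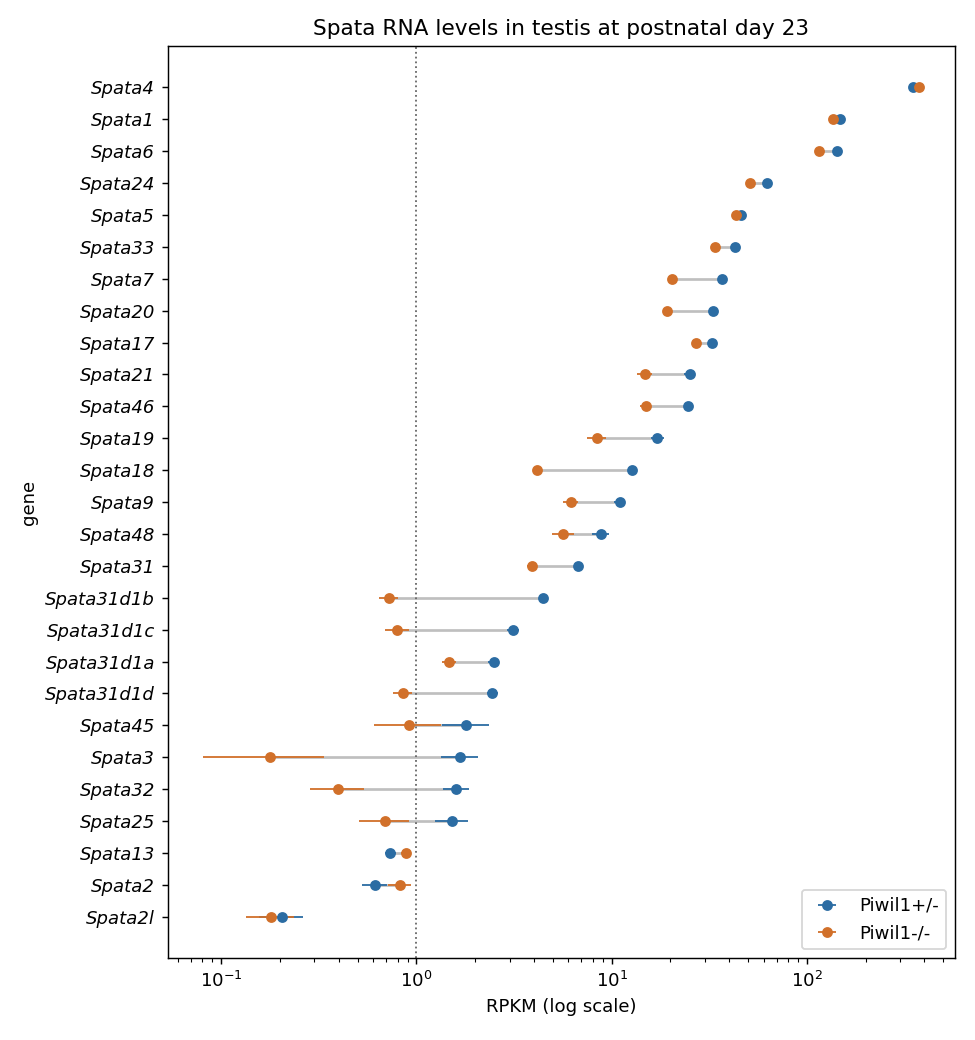
RPKM of each Spata gene on a log axis in Piwil1+/- (blue) and Piwil1-/- (orange), 1 library each, with 95% counting intervals as horizontal bars; the dotted line marks 1 RPKM. Spata4, Spata1 and Spata6 lie at 100 RPKM or more in both libraries, and in 24 of 27 genes the Piwil1-/- point lies to the left.

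Most Spata RNAs were lower in Piwil1-/- testis. The level was lower in Piwil1-/- for 24 of 27 members and higher for 3, namely Spata4, Spata13 and Spata2. Over all 27 members the median log2 ratio of RPKM + 1, Piwil1-/- minus Piwil1+/-, was -0.58, against 0.0055 over the 9951 genes with 1 RPKM or more in either library. A log2 ratio below 0 was found in 48.8% of those 9951 genes. The counting interval of the RPKM ratio lay wholly below 1 for 23 members, wholly above 1 for 3 and covered 1 for Spata2l. In bulk RNA, fewer cells of a type and less RNA per cell cannot be told apart.

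Of the 27 members, 24 reached 1 RPKM in at least 1 library. On the log2 scale of RPKM + 1, 4 of these were at least 2-fold lower in Piwil1-/-: Spata31d1b, Spata18, Spata31d1c and Spata3. The background was 1.96% of the 9951 genes, or 195 genes. No member was at least 2-fold higher, where the background was 0.231%. Of the 24, 7 passed the filter through Piwil1+/- alone and none through Piwil1-/- alone. The direction of these 7 was thus fixed by the filter. Among them were 3 of the 4 called members, Spata31d1b, Spata31d1c and Spata3. The counts are given as a description. The value nearest the limit on the inner side was that of Spata3 (-1.18) and on the outer side that of Spata19 (-0.96). Adding 1 RPKM to both values shrinks the ratio of low genes. On the RPKM ratio itself 8 members were at least 2-fold lower, against a background of 3.50%. These were the 4 above with Spata19, Spata25, Spata31d1d and Spata32. Of those added, Spata25, Spata31d1d and Spata32 passed the filter through Piwil1+/- alone. At a limit of 1.5-fold on RPKM + 1, 13 members were lower, against 5.21% of all genes.

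**Figure D2:**
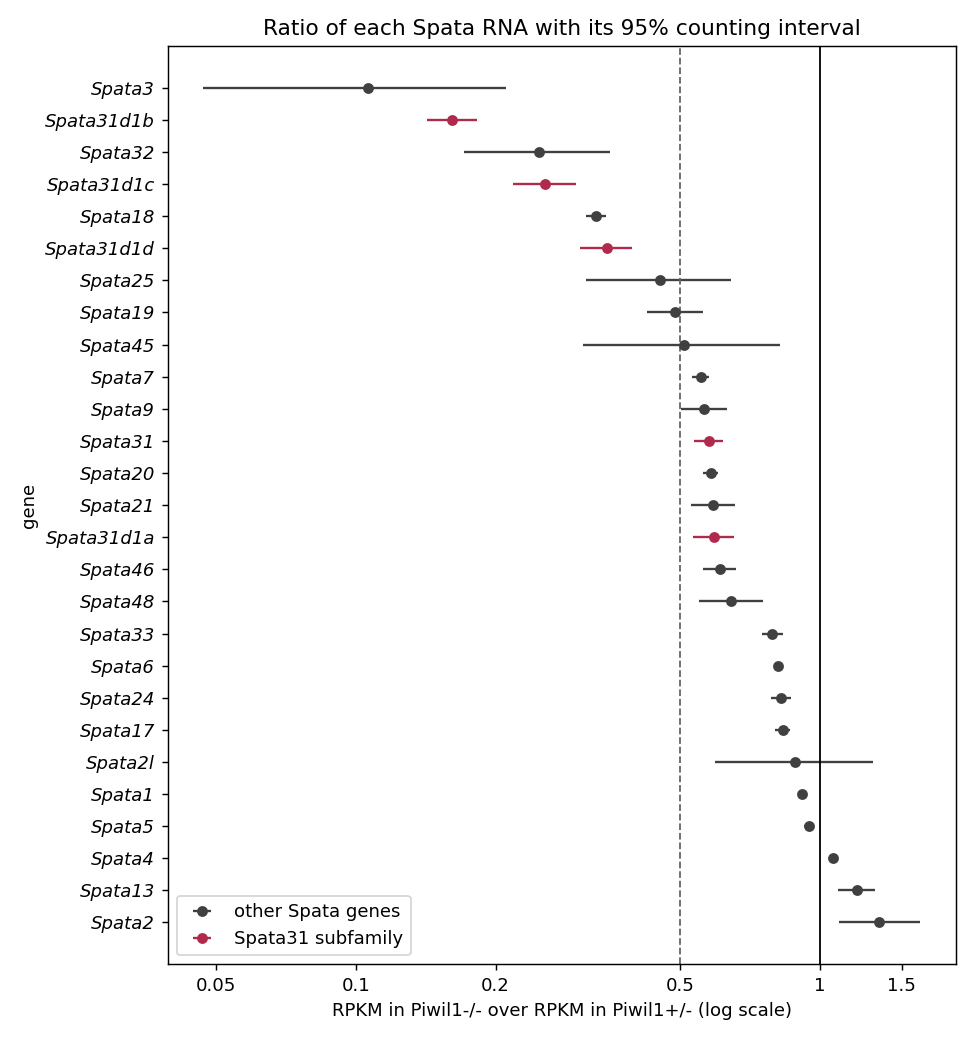
Ratio of RPKM in Piwil1-/- to Piwil1+/- for each of 27 Spata genes on a log axis, with 95% counting intervals from recovered reads; red marks the Spata31 subfamily, the solid line equality and the dashed line a ratio of 0.5. For Spata3, Spata31d1b, Spata32, Spata31d1c, Spata18 and Spata31d1d the whole interval lies below 0.5.

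The 5 Spata31 genes were each under 10 RPKM, and each was lower in Piwil1-/-. The founding gene Spata31 encodes a spermatid protein linked to the acrosome. The 5 genes summed to 19.3 RPKM in Piwil1+/- and 7.72 RPKM in Piwil1-/-, a 2.50-fold difference. The other 19 members of 1 RPKM or more summed to 1002 and 878 RPKM, a 1.14-fold difference. Sums are set mostly by the highest genes, and the median log2 ratio of the 5 was -0.90 against -0.58 for the 19. Of the 5, 3 passed the filter through Piwil1+/- alone (Spata31d1b, Spata31d1c and Spata31d1d), against 4 of the 19. Among members with 1 RPKM or more in both libraries, an alternative chosen after seeing the data, the medians were -0.58 for 2 Spata31 genes and -0.56 for 15 others.

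Within the Spata31 subfamily the size of the difference varied. Spata31d1b was at 4.47 RPKM in Piwil1+/- and 0.720 RPKM in Piwil1-/-, from at least 1899 and 295 reads. That is 6.20-fold lower, with a counting interval from 5.49 to 7.04, and only 0.462% of the 9951 genes had a lower log2 ratio. Spata31d1c was at 3.12 and 0.798 RPKM, 3.91-fold lower (3.35 to 4.58). Spata31d1d was at 2.45 and 0.850 RPKM, 2.88-fold lower (2.54 to 3.28). Spata31 was at 6.75 and 3.89 RPKM, 1.74-fold lower (1.62 to 1.87), and Spata31d1a at 2.48 and 1.47 RPKM, 1.69-fold lower (1.53 to 1.88). The intervals of Spata31d1b, Spata31d1c and Spata31d1d did not meet those of Spata31 and Spata31d1a. In Piwil1+/- Spata31d1a and Spata31d1d were at nearly the same level, and in Piwil1-/- they were apart.

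All 5 Spata31 genes lie on chromosome 13, in a pair of places. Spata31d1a, Spata31d1b and Spata31d1d lie between 59700083 and 59731752 (mm10, RefSeq spans), and Spata31 and Spata31d1c between 64917406 and 65038004. Spata31d1a and Spata31d1b are 5696 bp apart on opposite strands. How alike the transcripts of these genes are was not measured, and the sources used here do not say how reads that fit several genes were counted. Whether members share reads was not tested, so the values of single Spata31 genes are uncertain to that extent.

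The promoter windows of these genes were compared. Windows run from 250 bases before to 50 bases after a RefSeq transcript start (GRCm38.p6) and are written 5′ to 3′ in the direction of the gene. The start used for Spata31d1a lies 390 bp inside its RefSeq gene span, and that of Spata31d1b at the end of its span. Spata31d1a and Spata31d1b share 86.7% of aligned positions, the highest identity within the subfamily, with 10 mismatches and 32 gap positions. They are shown because they are the most alike pair with ratios far apart. Capitals mark bases that differ from, or have no partner in, the other window, 26 in each. The longest runs of capitals lie at or near opposite ends of the windows.

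Spata31d1b (chr13:59712034-59712333, + strand): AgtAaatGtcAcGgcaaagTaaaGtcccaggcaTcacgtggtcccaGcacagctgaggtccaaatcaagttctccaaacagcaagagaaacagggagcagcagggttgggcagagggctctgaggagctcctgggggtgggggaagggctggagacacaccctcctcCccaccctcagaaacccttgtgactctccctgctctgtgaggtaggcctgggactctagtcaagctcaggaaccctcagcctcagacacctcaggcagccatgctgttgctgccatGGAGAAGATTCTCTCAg
Spata31d1a (chr13:59706148-59706447, - strand): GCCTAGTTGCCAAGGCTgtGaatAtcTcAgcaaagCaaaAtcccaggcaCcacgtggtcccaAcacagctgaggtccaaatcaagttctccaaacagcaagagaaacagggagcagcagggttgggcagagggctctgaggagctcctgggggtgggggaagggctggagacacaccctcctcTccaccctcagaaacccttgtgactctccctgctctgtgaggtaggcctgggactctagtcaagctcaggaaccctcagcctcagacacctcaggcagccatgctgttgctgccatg

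Among the 4 Spata31d1 genes the other identities ranged from 56.3% to 62.6%, and those with Spata31 from 46.5% to 48.7%. Pairs of windows of the other members had a median identity of 45.6% over 190 pairs, with a highest value of 51.9%. By this measure the window of Spata31 was as far from the Spata31d1 windows as windows of other members were from each other.

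Genes beside the Spata31 loci were measured too and varied. Next to Spata31d1a, 5979 bp away, 4921517D22Rik was at 1.19 RPKM in Piwil1+/- and 0.0493 RPKM in Piwil1-/-, a log2 ratio of -1.06. On the other side of the group, 1700014D04Rik was at 17.0 and 11.8 RPKM (log2 ratio -0.49). Golm1 had a log2 ratio of -0.40 and Isca1, of iron-sulphur cluster assembly, was at 0.13. Beside Spata31d1c, the protease gene Prss47 was at 2.05 and 2.04 RPKM, and Mfsd14b at 2.85 and 2.95 RPKM. Beside Spata31, Cntnap3 was under 1 RPKM in both libraries.

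Among members linked to the sperm tail and mitochondria, Spata18 was furthest from equality. SPATA18, also called MIEAP, takes part in the quality control of mitochondria. Its RNA was at 12.6 RPKM in Piwil1+/- and 4.15 RPKM in Piwil1-/-, 3.04-fold lower (2.90 to 3.20), from at least 6604 and 2092 reads. It is the member with 1 RPKM or more in both libraries that passed the 2-fold limit on RPKM + 1. Its neighbour Sgcb, 3642 bp away, was at 6.45 and 5.86 RPKM. Spata19, a protein of the mitochondria of the sperm midpiece that motility requires, was at 17.2 and 8.37 RPKM. It was 2.05-fold lower (1.79 to 2.35). The rest of the group was closer to equality: Spata48 was 1.55-fold lower, at 8.78 and 5.65 RPKM. Spata33, which ties calcineurin to sperm mitochondria, was at 43.0 and 33.9 RPKM, 1.27-fold lower (1.20 to 1.33). Spata17, with IQ motifs, was at 32.7 and 27.2 RPKM, 1.20-fold lower (1.16 to 1.25). Spata45 was at 1.80 and 0.916 RPKM, from at least 55 and 27 reads, and its interval of 1.22 to 3.24-fold is among the widest. All 6 of the group were lower in Piwil1-/-, against 48.8% of all genes tested, with 1 past the 2-fold limit, against 1.96%. Spata45 passed the filter through Piwil1+/- alone.

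All 4 members linked to the sperm head and neck were also lower in Piwil1-/-, against 48.8% of all genes tested. None of the 4 passed the 2-fold limit, against 1.96% of all genes, so the lack of a call among 4 genes says little. Spata32 passed the filter through Piwil1+/- alone. Spata46, a nuclear envelope protein of spermatids, was at 24.6 RPKM in Piwil1+/- and 14.95 RPKM in Piwil1-/-, 1.64-fold lower (1.51 to 1.78). Spata32 was at 1.60 and 0.397 RPKM, from at least 167 and 40 reads. Its RPKM ratio was 4.02-fold lower (2.84 to 5.83), while its log2 ratio with 1 RPKM added was -0.89. Spata6 was 1.23-fold lower (1.22 to 1.25) and Spata1, placed here by the list, 1.09-fold lower (1.07 to 1.11). The low member of this group thus had the ratio furthest from equality, and the high members had ratios nearer to it.

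Members of little-known function included Spata4, the highest in level, and Spata3, the lowest in RPKM ratio. On the RPKM ratio Spata3 was furthest from equality among the 27 members, with an interval that overlaps that of Spata31d1b, while on the scale of RPKM + 1 it was the fourth. It was at 1.67 RPKM in Piwil1+/- and 0.177 RPKM in Piwil1-/-, 9.42-fold lower. Its reads were few, at least 88 and 9, and the interval ran from 4.74 to 21.3. The proteasome gene Psmd1, 34657 bp from Spata3, was at 60.9 and 70.3 RPKM, and Gpr55, on the other side, at 2.06 and 2.30 RPKM. Spata25 was at 1.52 and 0.688 RPKM, 2.21-fold lower (1.56 to 3.19). Spata9 was at 11.0 and 6.18 RPKM and Spata21, a predicted EF-hand protein, at 25.1 and 14.7 RPKM. Spata20, with a thioredoxin domain, was at 33.0 and 19.2 RPKM, 1.72-fold lower (1.66 to 1.78). These last 3 were 1.70 to 1.78-fold lower. Spata24, which binds the TBP-related factor of the testis, was at 62.2 and 51.2 RPKM, 1.21-fold lower. Spata4 was the exception, at a ratio of 1.07 (1.05 to 1.08).

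Members used broadly outside the testis were divided. Spata7, a protein of the photoreceptor cilium, was at 37.0 RPKM in Piwil1+/- and 20.4 RPKM in Piwil1-/-, 1.81-fold lower (1.73 to 1.89). Spata5, the AAA ATPase AFG2A of ribosome maturation, was at 46.1 and 43.6 RPKM, at a ratio of 0.946 (0.922 to 0.970). Spata13, the exchange factor ASEF2, was at 0.735 and 0.881 RPKM. Spata2, an adaptor that brings the deubiquitinase CYLD to the linear ubiquitin ligase, was at 0.613 and 0.821 RPKM. Its relative Spata2l was at 0.204 and 0.180 RPKM, with an interval of the ratio from 0.595 to 1.303. Spata2 and Spata13 had ratios of 1.34 (1.10 to 1.64) and 1.20 (1.10 to 1.31).

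**Figure D3:**
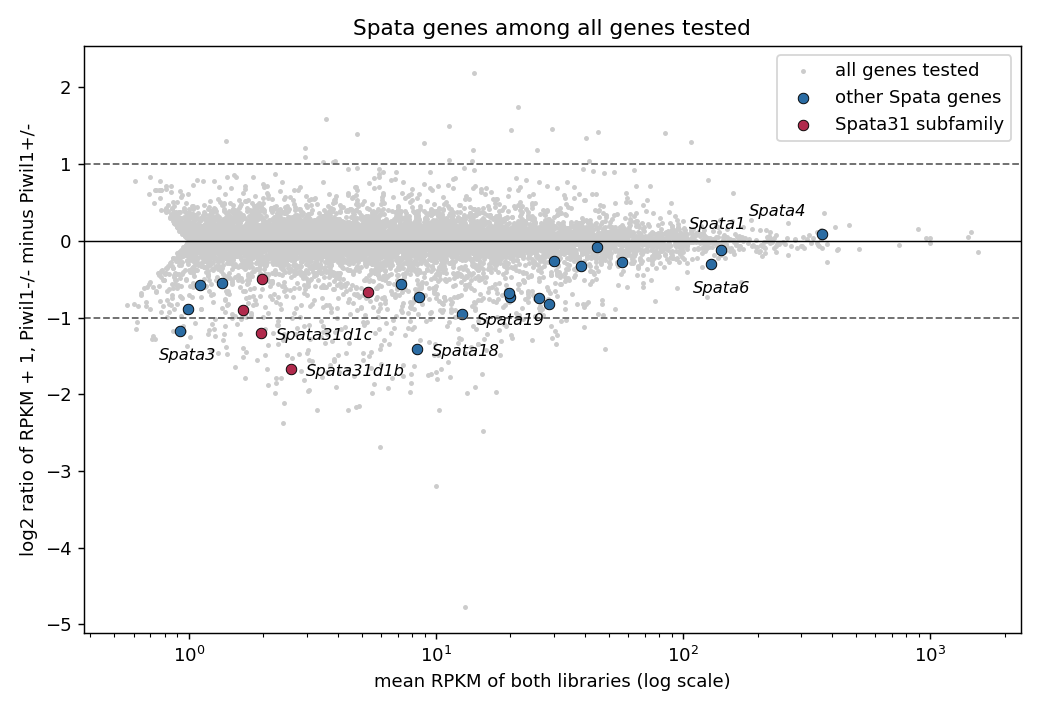
Log2 ratio of RPKM + 1 (Piwil1-/- minus Piwil1+/-) against the mean RPKM of both libraries on a log axis for 9951 genes (grey) and the 24 Spata genes among them (blue, and red for the Spata31 subfamily); dashed lines mark 2-fold. Spata31d1b, Spata18, Spata31d1c and Spata3 lie below the lower line, and Spata4, Spata1 and Spata6 lie near 0.

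Ratio and level went together among members above 1 RPKM in Piwil1+/-. The 3 members at 100 RPKM or more had RPKM ratios from 0.811 to 1.07, and the 6 between 30 and 100 RPKM from 0.553 to 0.946. The 5 between 10 and 30 RPKM had ratios from 0.329 to 0.609, the 4 between 3 and 10 RPKM from 0.161 to 0.643, and the 6 between 1 and 3 RPKM from 0.106 to 0.591. The 3 under 1 RPKM had ratios from 0.882 to 1.34. These bounds were set after the values were seen, and the level in Piwil1+/- is also the denominator of the ratio, so the 2 are not independent.

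Partner genes of SPATA proteins were mostly near equality. Of 21 on the list 20 were in the table and 18 reached 1 RPKM, and none of these was 2-fold lower or higher. Over all genes 1.96% were lower and 0.231% higher, so the lack of a call among 18 genes is near the background. The median log2 ratio of the 18 was -0.03. Ppp3cc and Ppp3r2, the sperm calcineurin subunits that SPATA33 binds, were at 66.5 and 67.3 RPKM and at 51.2 and 46.3 RPKM. Rpgrip1, a ciliary partner of SPATA7, was at 53.6 and 52.5 RPKM, while Spata7 was 1.81-fold lower. Tbpl1, the partner of SPATA24, was at 93.9 and 85.7 RPKM. Cyld was at 6.24 and 6.62 RPKM and Cinp, of the AFG2 complex, at 2.30 and 2.78 RPKM. Meiob, the partner of SPATA22, was at 8.93 and 8.89 RPKM. The lowest was Rpa1, of the single-stranded DNA binding complex RPA, at 50.5 and 28.1 RPKM, and the highest Rpa2, of the same complex, at 11.3 and 14.0 RPKM. Genes with kindred names outside the prefix were likewise mixed: Spatc1, which encodes speriolin, had a log2 ratio of -0.95 and Spatc1l was at -0.73, while Spats1 and Spats2 were at 0.04 and 0.11.

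Markers of late germ cells were also lower in Piwil1-/-. Of 19 elongating spermatid markers 15 reached 1 RPKM, 11 of them were at least 2-fold lower, against 1.96% of all genes, and their median log2 ratio was -1.28. Of the 11, 4 passed the filter through Piwil1+/- alone; of the 10 markers with 1 RPKM or more in both libraries 7 were at least 2-fold lower, with a median of -1.22. Their summed level, over all 19, was 344 RPKM in Piwil1+/- and 153 RPKM in Piwil1-/-. The defining markers Prm1, Prm2 and Tnp1 were at 0.0616, 1.42 and 0.458 RPKM in Piwil1+/- and were listed at 0 in Piwil1-/-. The summed level thus comes mostly from other markers of the list. The highest were Akap4, at 70.5 and 25.8 RPKM, and Akap3, at 69.1 and 36.9 RPKM. Whether elongating spermatids were present was not tested. Cabs1 and Spem1 had the lowest log2 ratios of the list, -2.47 and -2.21, and Hspb9 the highest, 0.24. Of 22 round spermatid markers 21 reached 1 RPKM, 3 were at least 2-fold lower, 1 was at least 2-fold higher and the median was -0.51. The shares over all genes were 1.96% lower and 0.231% higher. Of the 21, 19 had a log2 ratio below 0, against 48.8% of all genes tested. The summed level of all 22 was 706 and 669 RPKM. Tex101 alone was at 62.3 and 154 RPKM, so the sum hides part of the difference in the other markers. Spert, Fhl5 and Spaca3 had the lowest log2 ratios of the list (-1.50, -1.35 and -1.03) and Tex101 the highest (1.29). The part of these markers in the Spata values was not tested.

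Lists of other stages and cells were nearer to 0. The median log2 ratio was 0.04 for 5 spermatogonial genes, 0.11 for 21 meiotic prophase genes and -0.11 for 14 late pachytene and division genes. It was 0.10 for 7 Sertoli cell genes, -0.16 for 7 Leydig cell genes, 0.01 for 5 peritubular genes, -0.02 for 3 leukocyte genes and -0.41 for 3 red blood cell genes. Housekeeping genes had a median of 0.03 over 12 genes. Of all these lists, 1 late pachytene gene and 1 peritubular gene were at least 2-fold lower, against 1.96% of all genes. No gene reached 2-fold higher, against 0.231%. The lower genes were Calr3, a testis calreticulin, at 15.9 and 4.16 RPKM, and Actg2, a smooth muscle actin, at 17.6 and 3.04 RPKM. Both were named after their values were seen. Genes of Sertoli cells, Leydig cells and meiotic cells were found in both libraries, as the label testis implies. Of the listed genes, 7 of 12 for Sertoli cells, 7 of 9 for Leydig cells and 21 of 23 for meiotic prophase reached 1 RPKM. Spermatogonial genes did so for 5 of 11. Sox9, Amh and Insl3 were among those under 1 RPKM in both libraries.

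**Figure D4:**
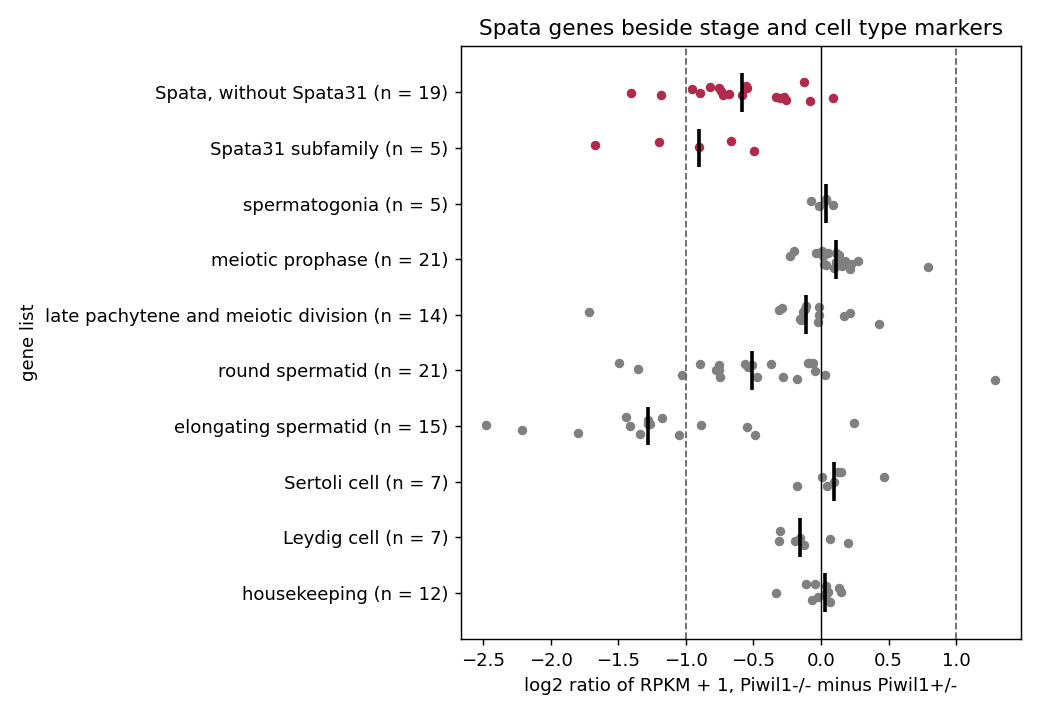
Log2 ratio of RPKM + 1 (Piwil1-/- minus Piwil1+/-) of each gene with 1 RPKM or more in either library, by list; red points are Spata genes, grey points marker genes, black bars medians, and dashed lines mark 2-fold. The Spata medians of -0.58 (19 genes) and -0.90 (5 Spata31 genes) lie between those of round (-0.51) and elongating (-1.28) spermatid markers. Of the 19, 4 passed the filter through Piwil1+/- alone, and of the 5, 3 did. With 1 RPKM or more in both libraries, an alternative chosen after seeing the data, the Spata medians were -0.56 and -0.58. Those of round and elongating spermatid markers were then -0.51 and -1.22.

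RefSeq promoter windows were matched by symbol for 25 of 27 members, in 32 windows, and searched for 4 motifs on both strands. The cyclic AMP response element TGACGTCA, which CREM binds in spermatids, was found in 1 of 32 windows, against 1.79% of 32817 windows of all genes. That window belongs to Spata7, where the element covers positions -7 to 0, counting the start base as 0. The shorter TGACG, which lies inside the former, was in 10 windows of 8 members, 31.2% of the windows against 20.8% of all. GTTGCC, a core of the X-box that RFX factors bind, was in 12.5% against 12.5% of all. The TATA box TATAAA was in 6.25% against 13.6% of all. A match describes letters and is no evidence of binding.

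The windows of the 3 members outside Spata31d1b that were at least 2-fold lower are shown to set beside their ratios, and that of Spata7 because it holds the full element. Capitals mark motif matches, and windows in small letters throughout hold none.

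Spata18 (chr5:73651130-73651429, + strand): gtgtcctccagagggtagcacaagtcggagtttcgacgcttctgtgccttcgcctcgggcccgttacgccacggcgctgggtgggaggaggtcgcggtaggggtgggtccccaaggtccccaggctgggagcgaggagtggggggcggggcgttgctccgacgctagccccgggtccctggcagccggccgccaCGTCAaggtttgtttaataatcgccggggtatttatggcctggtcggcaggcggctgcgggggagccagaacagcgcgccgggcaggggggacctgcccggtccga
Spata31d1c (chr13:65032808-65033107, + strand): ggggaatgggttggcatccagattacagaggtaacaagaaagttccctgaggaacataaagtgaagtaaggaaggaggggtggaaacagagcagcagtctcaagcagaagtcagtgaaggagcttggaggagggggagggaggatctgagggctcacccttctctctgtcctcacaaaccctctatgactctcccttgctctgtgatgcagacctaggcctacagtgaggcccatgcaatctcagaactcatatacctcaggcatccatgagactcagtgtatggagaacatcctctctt
Spata3 (chr1:86021695-86021994, + strand): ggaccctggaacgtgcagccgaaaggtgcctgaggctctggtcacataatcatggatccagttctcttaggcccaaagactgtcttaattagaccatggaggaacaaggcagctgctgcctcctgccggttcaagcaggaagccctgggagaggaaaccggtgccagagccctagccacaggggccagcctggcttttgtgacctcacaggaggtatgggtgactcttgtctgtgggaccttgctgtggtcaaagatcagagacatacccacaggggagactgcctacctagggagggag
Spata7 (chr12:98627892-98628191, + strand): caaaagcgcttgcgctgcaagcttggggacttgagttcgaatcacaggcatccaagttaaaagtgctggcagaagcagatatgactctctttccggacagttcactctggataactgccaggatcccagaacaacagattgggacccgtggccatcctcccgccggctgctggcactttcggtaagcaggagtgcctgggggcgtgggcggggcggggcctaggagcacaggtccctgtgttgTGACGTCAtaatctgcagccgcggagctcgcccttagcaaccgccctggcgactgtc

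The Spata18 window holds TGACG on the opposite strand at positions -56 to -52. The Spata31d1c and Spata3 windows held none of the 4 motifs. The start used for Spata3 lies 3914 bp inside its RefSeq gene span, and for Spata7 13 bp inside.

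Windows of Spata genes differed widely in CpG content, the number of CG dinucleotides in 300 bases, and members poor in CpG had the lower median ratio. With the highest count taken for genes with several windows, 14 of the members at 1 RPKM or more had at most 5 CpG, and their median log2 ratio was -0.73. The 7 with 15 CpG or more had a median of -0.30. Of the 14, 6 passed the filter through Piwil1+/- alone, and of the 7 none did. With 1 RPKM or more in both libraries the medians were -0.70 over 8 members and -0.30 over 7. Among all genes tested with a window, those with at most 5 CpG had a median of -0.15 over 785 genes, of which 11.2% were at least 2-fold lower. Genes with 15 CpG or more had a median of 0.02 over 5720 genes, of which 0.612% were at least 2-fold lower. The 5 Spata31 genes had 0 to 5 CpG, Spata3, Spata19, Spata20, Spata25 and Spata46 had 4 each, and Spata1 had 48. The only window of Spata9, with 1 CpG, starts 7769 bp inside its gene span, and that of Spata3 3914 bp inside. The Spata48 window with the highest count, 5 CpG, starts 20816 bp inside, and its window at the start of the span has 2 CpG. Whether these starts are the ones used in testis was not tested. Spata18 with 30 and Spata7 with 17 were CpG-rich members with low ratios, and Spata4 with 8 was a member above 0. The bounds were chosen after the values were seen, and the association is a description of genes, which are not independent replicates.

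**Figure D5:**
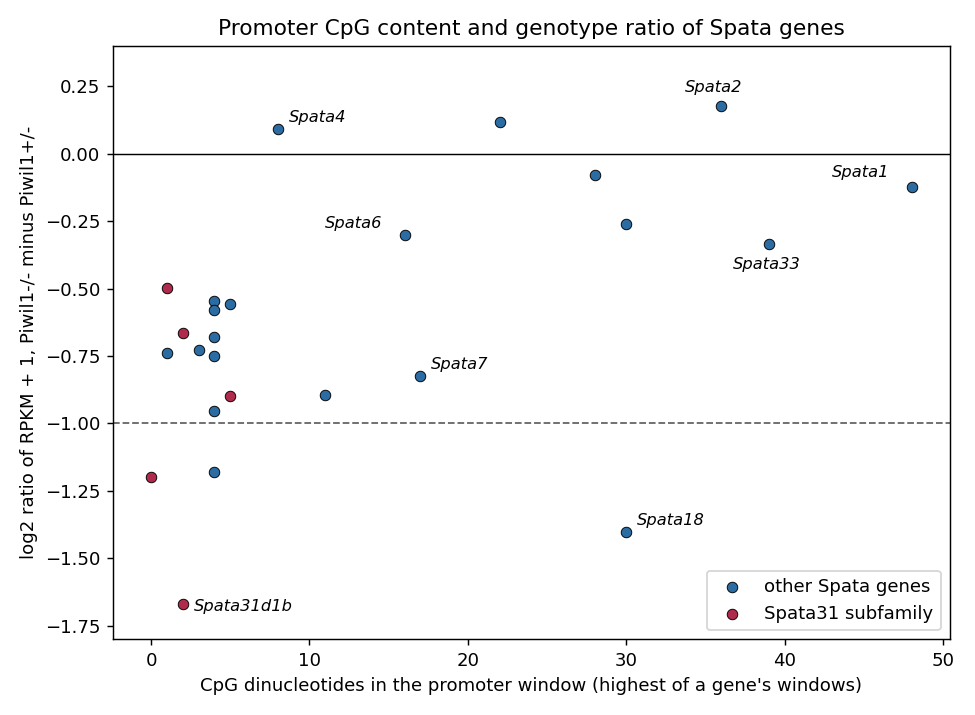
Log2 ratio of RPKM + 1 (Piwil1-/- minus Piwil1+/-) of the 25 Spata genes with a promoter window against the CpG dinucleotides in it, with red for the Spata31 subfamily; the dashed line marks 2-fold. Members with 5 CpG or fewer all lie below 0, and Spata18 with 30 CpG lies low among the CpG-rich ones. The windows used for Spata9, Spata3, Spata13 and Spata48 start far inside their gene spans.

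Several members overlap another gene in RefSeq, and the sources used here do not say whether counting used strand. The span of Spata48 overlaps that of Zpbp on the opposite strand, an acrosomal gene at 54.6 and 51.0 RPKM, far above Spata48 itself. Spata17 overlaps Gpatch2 (14.6 and 11.1 RPKM), Spata2 overlaps Rnf114 (9.19 and 10.0 RPKM) and Spata1 overlaps Ctbs (2.27 and 3.07 RPKM). Spata2l overlaps Cdk10, at 10.3 and 11.5 RPKM, by the ends of the spans. For the low members Spata2 and Spata2l, whether reads of the neighbour enter the value was not tested.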

How the data were processed

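RNA-seq libraries from total testis RNA were directional (TruSeq) with ribosomal RNA removed, per the labels' protocols. The authors deposited gene values as RPKM, per the file headers; Bowtie, STAR and mm10 are named in the submitters' processing notes, without settings or roles. For the counter, annotation and strand setting: not given in the sources used here. Deposited small RNA reads were not used here.

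Symbols were matched by Ensembl identifier for 22444 of 22808 rows. Coordinates and promoter windows are RefSeq's, GRCm38.p6. Ratios are differences of log2 (RPKM + 1), and genes with 1 RPKM in either library were tested. RPKM values are whole reads over gene length and library total, so totals were recovered from genes with spans under 1500 bp, and reads as the smallest whole numbers that reproduce both values ("at least"). Ratio intervals are exact binomial (Clopper-Pearson), and level intervals are exact Poisson. Copies made by PCR make both too narrow, while true read numbers above these smallest ones make both too wide. Windows were aligned globally with Biopython 1.88. The steps were tested on simulated data. Members and lists were chosen with earlier results of these data known. The plan was to name all members, Piwil1, partner genes, neighbours of members past 2-fold, and up to 3 extremes per stage list. Named beyond that plan were the spermatid markers Prm1, Prm2, Tnp1, Akap3, Akap4 and Spaca3. Neighbours of some other members and genes with kindred or former Spata names were named too. Alternatives covered pseudocount, filter, scaling, fold limit and leaving out the Spata31 subfamily.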

Additional observations from a re-analysis of the deposited data

How the results depend on the processing

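The count of Spata members at least 2-fold lower moved with the pseudocount, from 4 to 8 with 0.1 RPKM and to 8 with none. It was 2 without the Spata31 subfamily, 13 at 1.5-fold and, in an alternative chosen after seeing the data, 1 with 1 RPKM required in both libraries, where 134 of 9386 genes, 1.43%, were lower. It stayed at 4 with a 0.5 RPKM filter and with no filter, against 1.69% and 0.855% of all genes. On RPKM + 1 a gene under 1 RPKM in Piwil1+/- cannot be 2-fold lower, so a looser filter could add none. The count was also 4 with both rescalings, against 1.99% and 2.1% of all genes. With a mean of 1 RPKM it was 3, against 1.91%. Over all genes, 332 were lower and 68 higher with 0.1 RPKM, 348 and 74 with no pseudocount, and 518 and 141 at 1.5-fold, against 195 and 23. The median ratio of members that passed each filter lay between -0.79 and -0.56. Spata3, with as few as 9 reads in Piwil1-/-, is limited by depth. No paired analysis was possible because each genotype has 1 library.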

Other observations

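Genes of the table that once carried a Spata name, by RefSeq synonyms, lie outside the members. 4430402I18Rik, formerly Spata6l and a relative of Spata6, was at 52.4 RPKM in Piwil1+/- and 29.8 RPKM in Piwil1-/-, a ratio of 0.568. Spata6 had a ratio of 0.811 in the same libraries. Ints13, a subunit of the Integrator complex and formerly Spata30, was at 50.9 and 50.05 RPKM. Maats1, a ciliary gene and formerly Spata26, was at 18.2 and 17.9 RPKM, and Alkbh7, formerly Spata11, at 1.99 and 2.08 RPKM. These values have no replicate check.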
